A study of Mus musculus with 4 samples.

Results

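Ephb2, Ephb3, Ephb4 and Epha2 encode Eph receptors, Efnb1, Efnb2 and Efna1 encode their ephrin ligands, and Cd44 encodes a receptor for hyaluronan. These 8 genes were taken by symbol from the deposited table of 18436 genes in sorted stem cells of the mouse intestine. All 8 symbols were listed, and all 8 passed the filter on low values that left 12621 genes for testing. The values are FPKM, counts of sequenced fragments divided by transcript length and by the size of the library, so that levels can be compared between genes.

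The RNA came from Lgr5-GFP high cells, sorted for strong GFP. In these C57BL/6 mice the Lgr5 gene drives GFP and a tamoxifen-inducible Cre recombinase (the Lgr5-EGFP-IRES-creERT2 allele). The 2 Lgr5-CREPT WT mice carried this allele and no floxed gene. The 2 Lgr5-CREPT KO mice carried it together with floxed alleles of CREPT (CREPT fl/fl). CREPT is the product of Rprd1b and binds the tail of RNA polymerase II. Both genotypes were given 5 daily doses of 1 mg of tamoxifen, controls included, and sorting took place on day 7. The study used mice of 6 to 8 weeks and of both sexes, and gives no age or sex for each mouse. Cre is active only where Lgr5 is transcribed, and the allele is known to be silent in some crypts, so the cells studied are those in which it was expressed. The comparison asks whether loss of CREPT in these cells altered the genes by which crypt cells hold their position.

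Eph receptors are tyrosine kinases that are activated by ephrins on the surface of a neighbouring cell, and both sides can signal. A-type ephrins are held in the membrane by a lipid anchor and bind mainly EphA receptors, whereas B-type ephrins span the membrane and bind mainly EphB receptors. In the intestinal crypt, Wnt signalling keeps EphB2 and EphB3 high at the base, where the stem and Paneth cells lie, and ephrin-B1 rises towards the villus. Repulsion between the opposed gradients keeps Paneth cells at the base and sorts dividing from differentiated cells. CD44 binds hyaluronan in the matrix, is another Wnt target of the crypt base, and exists in many splice forms.

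The start regions of 4 genes are shown because they lie before genes with opposite or uneven values below: Efna3, the ephrin gene that passed the test, Efnb1 and Efnb2, which lay on opposite sides of the WT mice, and Epha2, which separated the WT mice. Sequences are from RefSeq on GRCm38.p6, read 5′ to 3′ on the strand of the gene, and each holds 130 bases from the 250 before the annotated start of transcription. They cover chr3:89322966-89323095 (minus strand) for Efna3, chrX:99135931-99136060 (plus) for Efnb1, chr8:8661243-8661372 (minus) for Efnb2 and chr4:141300971-141301100 (plus) for Epha2. Capitals mark every match, on either strand, to 4 kinds of word: the TCF/LEF word (CTTTGNN, where each N is A or T), the GC box (GGGCGG), the CCAAT box and the TATA word (TATAAA). For Efna3, Efnb1 and Efnb2 the stretch is the one nearest the start that lies outside annotated exons. For Epha2 the far end of the 250 bases was chosen, so that its TCF/LEF word is shown. Matches outside the stretches, such as the GC box of Epha2, are not shown.
Efna3: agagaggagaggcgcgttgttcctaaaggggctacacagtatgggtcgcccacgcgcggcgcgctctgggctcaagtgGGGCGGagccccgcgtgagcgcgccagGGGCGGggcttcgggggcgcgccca
Efnb1: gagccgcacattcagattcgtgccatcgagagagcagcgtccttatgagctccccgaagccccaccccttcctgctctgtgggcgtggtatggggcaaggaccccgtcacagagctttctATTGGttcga
Efnb2: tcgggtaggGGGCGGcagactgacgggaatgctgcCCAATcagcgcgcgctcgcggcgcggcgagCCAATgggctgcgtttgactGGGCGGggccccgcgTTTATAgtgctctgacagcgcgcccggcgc
Epha2: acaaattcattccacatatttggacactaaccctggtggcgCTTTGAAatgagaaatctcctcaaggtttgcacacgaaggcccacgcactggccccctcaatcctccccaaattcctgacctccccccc

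In windows of 300 bases, 250 before and 50 after the start, Epha2 was the 1 gene of the 8 with a TCF/LEF word, against 16.9% of all 32851 RefSeq windows. The GC box was found in 6 of the 8 genes, against 35.7% of all windows, and CCAAT in 4 of the 8, against 37.4%. TATAAA was found in 1 gene, Efnb2, against 13.6% of all windows. The 8 genes' windows held between 54.7% and 72.3% G and C, and the median over all windows was 52.7%. A match to a short word is a description of the letters, and a window without one says nothing of enhancers further away.

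The genes lie on 7 chromosomes of GRCm38.p6. Ephb2 (chr4:136647536-136836326, minus strand) and Epha2 (chr4:141301221-141329384, plus) share chromosome 4. Ephb3 (chr16:21204620-21223309, plus), Ephb4 (chr5:137350109-137374522, plus), Efnb1 (chrX:99136061-99149022, plus), Efnb2 (chr8:8617235-8661242, minus) and Cd44 (chr2:102811141-102901669, minus) stand alone. Efna1 (chr3:89271730-89280951, minus) lies beside Efna3 (chr3:89313899-89322939) and Efna4 (chr3:89333393-89338028) on the same strand. Over all transcripts, no stretch of 50 bases was shared with another gene for 6 of the 8, and the share was 0.182% for Ephb2 and 0.118% for Ephb3. On the opposite strand, Ephb4 shares 33 exon bases (0.711%) with Zan, which was between 3.38 and 6.03 FPKM, and Efna3 shares 215 (8.83%) with the antisense gene Gm15998. The targeted gene Rprd1b shares 370 (5.69%) with Tgm2, which was between 91.67 and 102.92 FPKM. Whether the libraries kept strand is not given in the sources used here.

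The targeted gene Rprd1b was 17.7 and 18.1 FPKM in the WT mice and 6.65 and 7.36 FPKM in the KO mice, so the labels fit it (adjusted p = 0.0280, limma). Its mean was 60.8% lower in KO cells, so part of its RNA remained. Only part of the gene is floxed, and a value per gene cannot tell RNA of the deleted allele from intact RNA. The 4 columns summed to between 468830 and 499327 FPKM, and the table gives no read counts. The defining markers of the sorted cells were present, with Lgr5 between 37.7 and 60.1 FPKM and the 10 stem cell markers summing to between 6052 and 6797 FPKM. Of the 6 endothelial markers listed in the table, Pecam1, Cdh5, Kdr, Tek and Emcn were at 0.20 FPKM or lower in every mouse, whereas Esam was 9.89 and 8.76 FPKM in the WT mice and 8.0 and 7.98 FPKM in the KO mice. The 8 fibroblast markers summed to at most 1.38 FPKM. The 8 leukocyte markers summed to 6.83 and 9.47 FPKM in the WT mice and to 2.91 and 20.2 FPKM in the KO mice. WT mouse 2 stood apart from the other mice on immediate early genes, which are induced within minutes of a stimulus, cell isolation included: 11 of 13 were lowest in it, and WT mouse 1 exceeded it by 1.35 to 7.29 times (median 2.03). Several results that depend on this mouse are given with and without it.

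By level, the 8 genes fell into 5 steps. Ephb4 was the most abundant at 79.8 FPKM (mean of 4 mice), above 92.7% of the genes tested, followed by Efna1 at 47.6 FPKM. Ephb3 (32.5 FPKM), Efnb1 (31.1 FPKM) and Cd44 (30.5 FPKM) came next, and the ranges of neighbours overlapped. Ephb2 (20.6 FPKM) and Epha2 (18.5 FPKM) also overlapped, and Efnb2 stood apart at 3.68 FPKM.

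**Figure D1:**
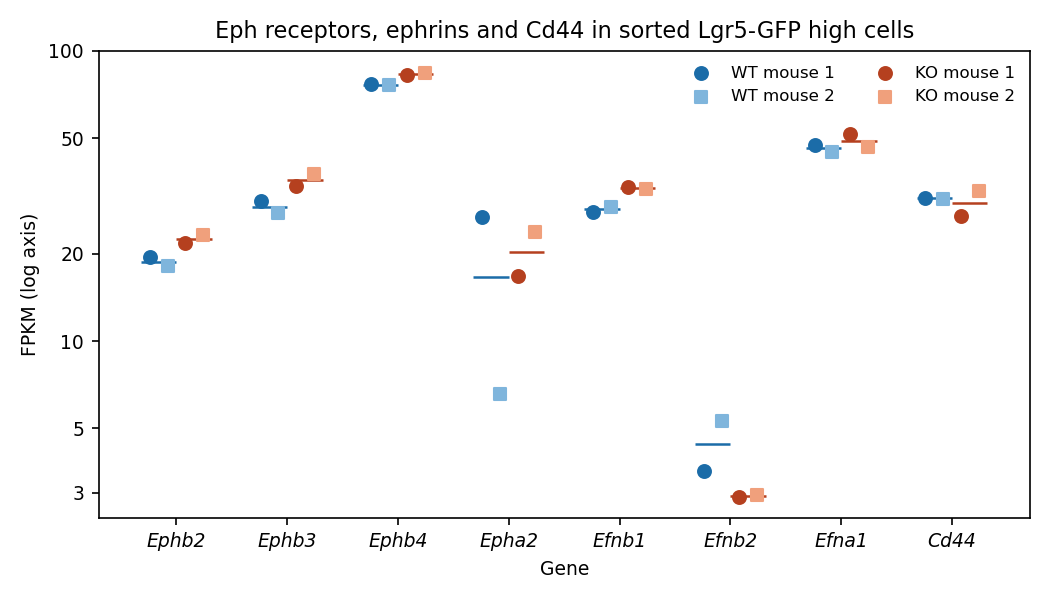
FPKM (log axis) of the 8 genes in each of the 4 mice, with circles and squares for mouse 1 and mouse 2 of each genotype and a line at each genotype mean. The KO points of Ephb2, Ephb3, Ephb4 and Efnb1 lie just above the WT points, those of Efnb2 lie below, and Epha2 is spread from 6.57 to 26.8 FPKM.

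None of the 8 genes passed an adjusted p of 0.05 in limma's moderated test (0 of 8, adjusted p between 0.131 and 0.789), where 3.08% of all genes tested did (0.412% higher and 2.67% lower in KO cells). With an absolute log2 fold change above 1 as well, the count was again 0 of 8, against 1.14% of all genes (0.127% higher and 1.01% lower). At an unadjusted p below 0.05, 3 of the 8 were higher in KO cells (Ephb2, Ephb3 and Efnb1) and 0 lower, against 24.5% of all genes (9.27% higher and 15.2% lower). This count of 3 was 1 without WT mouse 2, 1 without KO mouse 1, 0 without KO mouse 2, 4 without WT mouse 1 and 2 without limma's intensity trend. Both KO values lay above both WT values for 4 genes (Ephb2, Ephb3, Ephb4 and Efnb1), against 25.6% of all genes tested, and below both for 1 (Efnb2), against 31%. The median log2 fold change, KO minus WT, was 0.18 over the 8 genes and -0.01 over all genes, and without WT mouse 2 it was 0.081 and -0.02. With 2 mice per genotype, the smallest two-sided p of an exact permutation test is 0.333, and limma reaches lower values by borrowing variance from other genes.

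Ephb2, a receptor of the crypt base, was 19.4 and 18.1 FPKM in the WT mice and 21.8 and 23.1 FPKM in the KO mice. The genotypes did not overlap, and the gap between them was wider than the spread within either. Means were 18.8 ± 0.926 FPKM (SD, n = 2) and 22.4 ± 0.940 FPKM (SD, n = 2), 19.5% higher in KO cells. The log2 fold change was 0.25 (standard error 0.0840, 95% interval 0.04 to 0.47, adjusted p = 0.158).

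Ephb3, whose product is known to position Paneth cells, was 30.4 and 27.5 FPKM in the WT mice and 34.3 and 37.6 FPKM in the KO mice. Here too both KO mice were above both WT mice. Its mean was 24.2% higher in KO cells, with a log2 fold change of 0.31 (standard error 0.0912, 95% interval 0.07 to 0.54, adjusted p = 0.131).

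Ephb4, known best as the partner of ephrin-B2 in vessels and also made by intestinal epithelium, was 76.6 and 76.2 FPKM in the WT mice and 82.5 and 84.0 FPKM in the KO mice. As a ratio, the mice of each genotype differed by less than they did in Ephb2 or Ephb3, and the genotypes were separate. The difference was small, 8.91% or 0.12 on the log2 scale (95% interval -0.04 to 0.29, adjusted p = 0.310). Ephb4 made up 58.0% to 62.5% of the summed FPKM of the EphB receptors in each mouse. The remaining EphB gene listed, Ephb6, was at 0.07 FPKM or lower and was not tested.

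Among the B-type ephrins, Efnb1, the ligand of EphB2 and EphB3 in this epithelium, was 27.9 and 29.0 FPKM in the WT mice and 34.0 and 33.5 FPKM in the KO mice. The mice of each genotype were close together and the KO pair was higher. Its log2 fold change was 0.24 (standard error 0.0714, 95% interval 0.06 to 0.42, adjusted p = 0.131).

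Efnb2 was the 1 gene of the 8 with both KO values below both WT values. It was 3.57 and 5.29 FPKM in the WT mice and 2.91 and 2.94 FPKM in the KO mice, so the KO mice were nearly equal and WT mouse 2 was the high one. The mean was 34.0% lower in KO cells, with a log2 fold change of -0.50 (standard error 0.201, 95% interval -1.02 to 0.01, adjusted p = 0.214). Without WT mouse 2 the log2 fold change was -0.25 (adjusted p = 0.508), and without WT mouse 1 it was -0.76 (adjusted p = 0.204). Efnb2 is also a ligand of vessels. The 6 endothelial markers summed to 10.2 and 8.97 FPKM in the WT mice and to 8.20 and 8.19 FPKM in the KO mice, nearly all of it Esam, which was lower in both KO mice (log2 fold change -0.21). The part of vessel cells in the values of Efnb2 was not tested. Efnb3, the other B-type ephrin, was 1.33 and 1.34 FPKM in the WT mice and 1.55 and 1.67 FPKM in the KO mice (log2 fold change 0.20, adjusted p = 0.525).

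Because EphB receptors and B-type ephrins form opposed gradients in the crypt, the balance of their RNA in the sorted cells was compared. A ratio within these cells does not measure the gradients. Summed over the class, EphB receptors were 126 and 122 FPKM in the WT mice and 139 and 145 FPKM in the KO mice, and B-type ephrins were 32.8, 35.7, 38.4 and 38.1 FPKM in the same order. Receptor exceeded ligand in RNA by 3.86 and 3.42 times in the WT mice and by 3.61 and 3.80 times in the KO mice. The KO ratios lay within the range of the WT ratios, and their log2 means differed by 0.03 (exact permutation test, two-sided, p = 1). Leaving out WT mouse 2 made the difference -0.06.

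Within single pairs, Ephb2 over Efnb1 was 0.696 and 0.624 in the WT mice and 0.641 and 0.690 in the KO mice, again within the WT range (log2 difference 0.01, exact permutation p = 1). Ephb3 over Efnb1 differed by 0.07 on the log2 scale (exact permutation p = 0.667). The ratio of Ephb4 to its ligand Efnb2 had to separate the genotypes, because both KO mice were higher in Ephb4 and lower in Efnb2. It was 21.5 and 14.4 in the WT mice and 28.4 and 28.6 in the KO mice (log2 difference 0.69). The exact permutation p of 0.333, the smallest possible, was fixed by the same values and adds nothing to them. Like Ephb3 over Efnb1, this pair was not among the ratios planned. Without WT mouse 2, a check added after the values were seen, the difference was 0.41. Efnb1 made up 81.4% to 85.1% of the B-type ephrins in the WT mice and 87.9% to 88.4% in the KO mice.

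**Figure D2:**
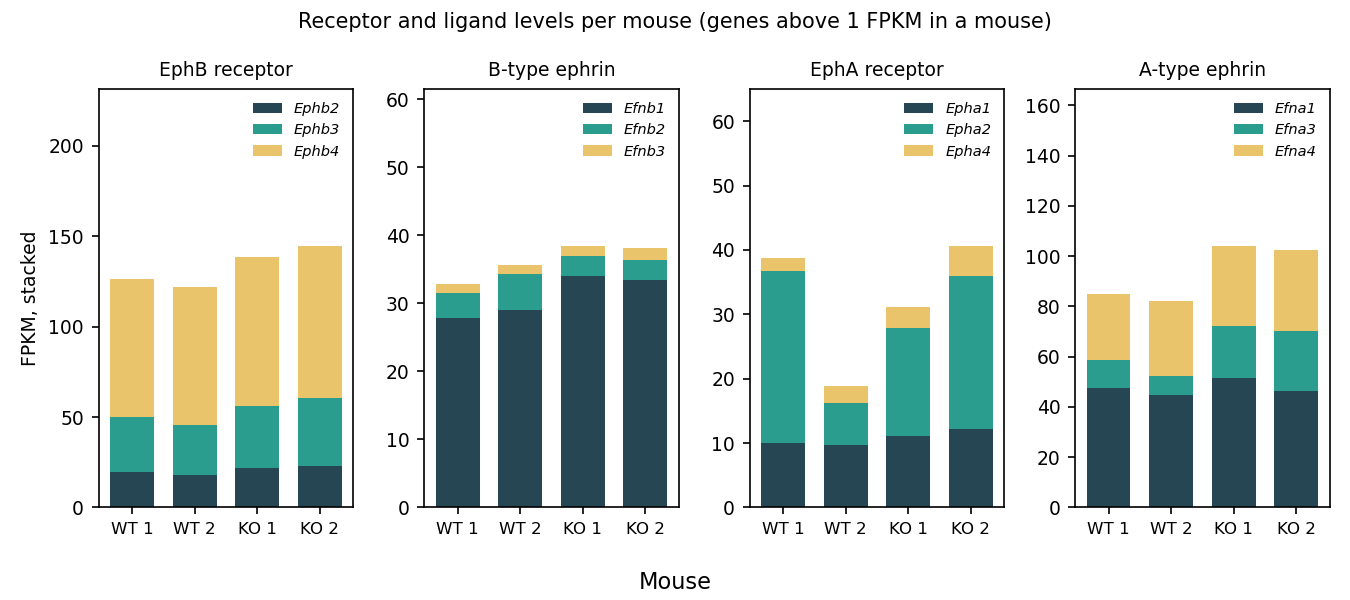
Stacked FPKM of the EphB receptors, B-type ephrins, EphA receptors and A-type ephrins in each mouse, showing the genes above 1 FPKM, with a separate vertical scale from 0 in each panel. The EphB and B-type bars are taller in both KO mice, the Efna3 share of the A-type bars is larger in both KO mice, and the EphA bar of WT mouse 2 is the shortest because of Epha2.

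Efna1, an A-type ephrin expressed widely in epithelium, was 47.4 and 44.8 FPKM in the WT mice and 51.5 and 46.5 FPKM in the KO mice. KO mouse 2 lay between the WT mice, so the genotypes overlapped. The log2 fold change was 0.09 (95% interval -0.13 to 0.30, adjusted p = 0.582).

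Its neighbour on chromosome 3, Efna3, was the 1 gene of the Eph and ephrin family past the adjusted p. Efna3 was 11.2 and 7.60 FPKM in the WT mice and 20.7 and 23.9 FPKM in the KO mice, with a gap between the genotypes wider than the spread within either. The mean rose from 9.38 ± 2.51 FPKM in WT cells (SD, n = 2) to 22.3 ± 2.24 FPKM in KO cells (SD, n = 2). The log2 fold change was 1.23 (standard error 0.194, 95% interval 0.73 to 1.73, adjusted p = 0.0492, limma), on a threshold that 0.412% of all genes passed in this direction. Its adjusted p was 0.142 without the filter on low values and 0.201 to 0.295 with any mouse left out. Without WT mouse 2 the log2 fold change was 0.97.

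The third gene of the cluster, Efna4, was 26.4 and 29.9 FPKM in the WT mice and 31.9 and 32.1 FPKM in the KO mice (log2 fold change 0.18, adjusted p = 0.285). The ratio of Efna3 to Efna1 was 0.235 and 0.170 in the WT mice and 0.403 and 0.514 in the KO mice. Against Efna4 the ratio was 0.423 and 0.254 in the WT mice and 0.650 and 0.746 in the KO mice. Both ratios were thus higher in both KO mice, although Efna3 was chosen for them after its own difference was seen. Efna3 supplied 9.14% to 13.04% of the A-type ephrin RNA in the WT mice and 19.7% to 23.2% in the KO mice.

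Epha2, a receptor for A-type ephrins that is linked to epithelial injury and growth, was 26.8 and 6.57 FPKM in the WT mice and 16.8 and 23.8 FPKM in the KO mice. The WT mice held both the highest and the lowest value, so the genotypes overlapped entirely. The log2 fold change was 0.56 with a 95% interval of -1.09 to 2.21 (adjusted p = 0.641), which leaves room for a change of either sign. Without WT mouse 2 it was -0.42 (adjusted p = 0.510), and without WT mouse 1 it was 1.53 (adjusted p = 0.201).

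The WT mice differed 4.08-fold in Epha2. As log2(FPKM + 0.5) the difference was 1.95. At least that much was met by 0.697% of all genes tested. It was met by 3 of the 5144 genes within 1 log2 unit of its level, Epha2 itself included. The genes whose 4 values lay nearest to those of Epha2, looked up after its values were seen, were Thbs1, Csrnp1 and Hbegf. Hbegf, a ligand of the EGF receptor, was 70.3 and 22.0 FPKM in the WT mice and 56.3 and 65.4 FPKM in the KO mice. Immediate early genes had the same low mouse: Egr1 was 370.8 and 133 FPKM in the WT mice and 285 and 336 FPKM in the KO mice, and Nr4a1 was 108, 14.8, 57.3 and 80.7 FPKM in the same order. The part of immediate early induction in the values of Epha2 was not tested.

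**Figure D3:**
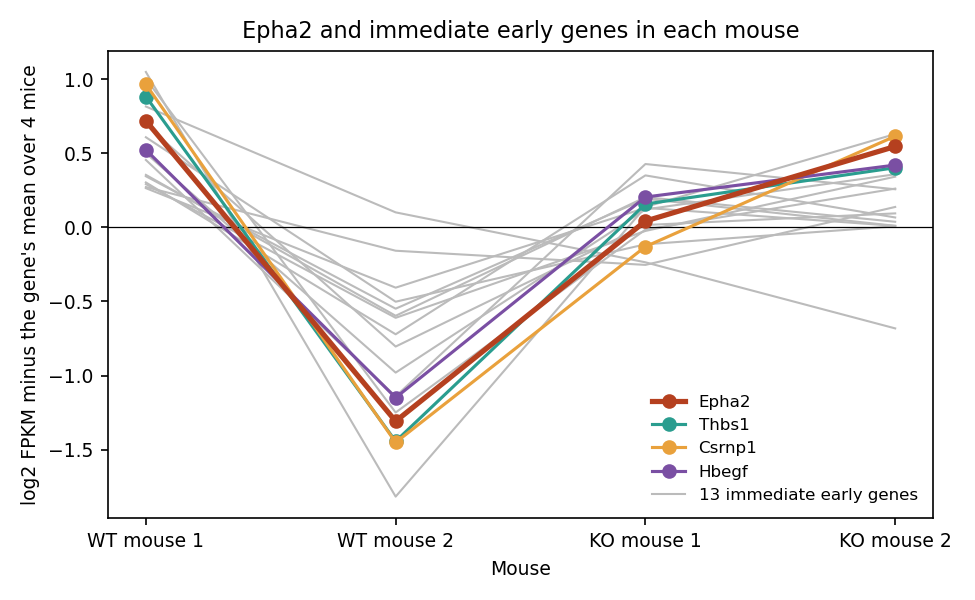
Log2 FPKM minus the gene's own mean over the 4 mice (vertical axis) in each mouse, for Epha2, its 3 nearest genes and 13 immediate early genes (grey), where lines only join the values of 1 gene. Epha2 and its nearest genes are highest in WT mouse 1 and lowest in WT mouse 2, and 11 of the 13 immediate early genes are lowest in WT mouse 2.

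The other EphA genes tested had lower means than Epha2. Epha1 was 9.94 and 9.65 FPKM in the WT mice and 11.2 and 12.2 FPKM in the KO mice (log2 fold change 0.24, adjusted p = 0.208). Epha4, which binds ephrins of both types, was 2.07 and 2.69 FPKM in the WT mice and 3.28 and 4.69 FPKM in the KO mice. Its genotypes did not overlap, but the KO mice differed by more than the gap between genotypes (log2 fold change 0.63, 95% interval 0.07 to 1.19, adjusted p = 0.168). EphA receptors summed to 39.4 and 19.2 FPKM in the WT mice and 31.4 and 40.9 FPKM in the KO mice. Their ratio to A-type ephrins, which was not among the ratios planned, differed by 0.08 on the log2 scale (exact permutation p = 1). It was 0.461 and 0.231 in the WT mice and 0.299 and 0.397 in the KO mice. Both KO ratios were thus above that of WT mouse 2 and below that of WT mouse 1.

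Across the whole family, 20 of 22 genes were listed and 13 tested. Of the 13, 1 passed the adjusted p (Efna3, higher), against 3.08% of all genes, and 12 did not. Both KO values lay above both WT values in 9, against 25.6% of all genes, and below both in 1, against 31%. Log2 fold changes were above 0 in 12 of the 13, with a median of 0.24 against -0.01 over all genes, and Efnb2 was the exception under each scaling tried. When 1 mouse was left out, 11 or 12 of the 13 were above 0. The last of the 13, Efna2, was between 0.47 and 0.88 FPKM (log2 fold change 0.05, adjusted p = 0.937). The 7 genes not tested (Epha3, Epha5, Epha7, Epha8, Epha10, Ephb6 and Efna5) were at 0.45 FPKM or lower in every mouse.

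**Figure D4:**
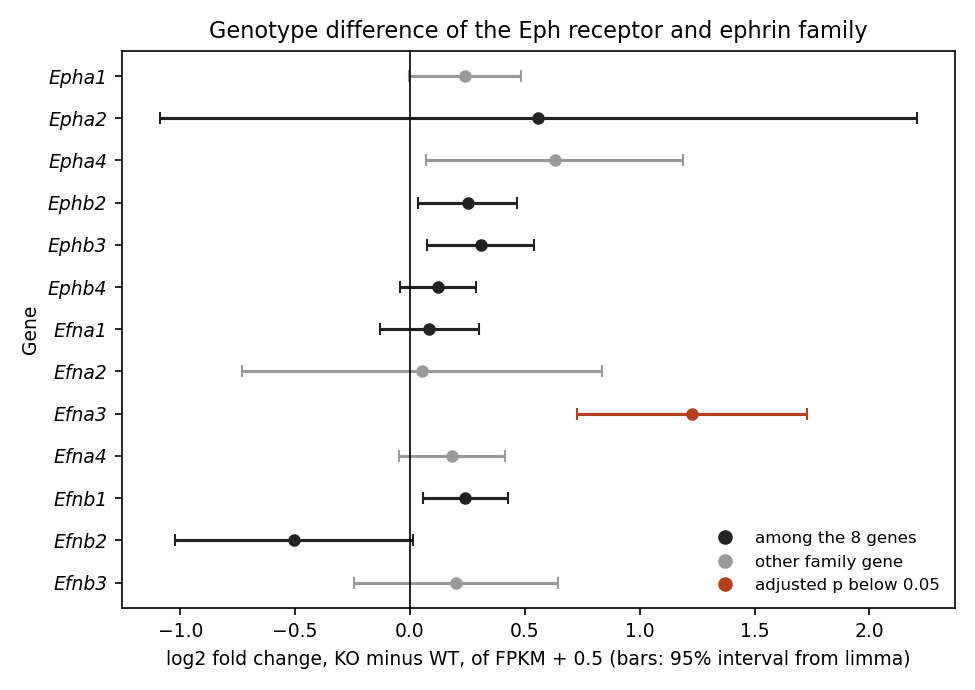
Log2 fold change of FPKM + 0.5, KO minus WT (horizontal axis), for the 13 family genes tested, with 95% intervals from limma. Points lie to the right of 0 for 12 genes, Efna3 at 1.23 is the 1 marked as past the adjusted p, and the interval of Epha2 spans -1.09 to 2.21.

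Cd44 was 31.2 and 31.0 FPKM in the WT mice and 27.0 and 32.8 FPKM in the KO mice. The WT mice lay inside the range of the KO mice. The mean was 31.1 ± 0.148 FPKM (SD, n = 2) in WT cells and 29.9 ± 4.09 FPKM (SD, n = 2) in KO cells. The log2 fold change was -0.06 (95% interval -0.35 to 0.23, adjusted p = 0.789), and its sign turned when columns were rescaled to an equal sum (0.017) or KO mouse 1 was left out (0.078).

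Of 29 genes listed as partners of CD44 (hyaluronan enzymes, cytoskeletal linkers, sheddases, splicing factors and other ligands), 22 were tested. Of these, 1 passed the adjusted p, against 3.08% of all genes. That gene was Esrp2, an epithelial splicing regulator that acts with Esrp1 to retain the variable exons of Cd44. Esrp2 was 29.9 and 28.7 FPKM in the WT mice and 12.4 and 13.1 FPKM in the KO mice. It fell by 1.17 on the log2 scale (standard error 0.0801, 95% interval -1.38 to -0.96, adjusted p = 0.0280, limma), and the adjusted p was between 0.0142 and 0.295 over the alternatives. Esrp1, more abundant than Esrp2 in all 4 mice, was 61.9 and 65.7 FPKM in the WT mice and 61.7 and 59.8 FPKM in the KO mice (log2 fold change -0.07, adjusted p = 0.603). Cd44 has 8 coding transcripts and up to 19 exons in the annotation, and a value per gene cannot tell its splice forms apart. The median log2 fold change of the 22 genes was 0.00, with 11 above and 11 below 0.

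Of 46 genes listed as signalling partners of Eph receptors and ephrins (kinases and phosphatases, adaptors, exchange factors and GTPases), 41 were tested and 0 passed the adjusted p in limma. At an unadjusted p below 0.05, 7 were higher and 2 lower, a share close to the 24.5% of all genes, and the median log2 fold change was 0.06. The smallest p was that of Vav3, an exchange factor recruited by activated Eph receptors, at 4.99 and 4.96 FPKM in the WT mice and 3.03 and 3.32 FPKM in the KO mice (log2 fold change -0.58, adjusted p = 0.0741). Its relative Vav2 and the Src family kinase Fyn, singled out after their values were seen, lay on opposite sides. Vav2 was 8.21, 8.64, 12.9 and 11.2 FPKM in WT 1, WT 2, KO 1 and KO 2 (log2 fold change 0.49, adjusted p = 0.0835). Fyn was 2.40, 2.22, 0.84 and 1.25 FPKM in the same order (log2 fold change -0.88, adjusted p = 0.0911).

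Ephb2, Ephb3 and Cd44 are Wnt targets, so other Wnt targets of the crypt were read beside them. Of 17 listed, 14 were tested, 0 passed the adjusted p in limma, 6 were higher and 0 lower at an unadjusted p below 0.05 (9.27% and 15.2% of all genes), and the median log2 fold change was 0.19. Ccnd1, which encodes cyclin D1, had the smallest p, at 56.3 and 52.0 FPKM in the WT mice and 80.8 and 100.2 FPKM in the KO mice (log2 fold change 0.73, adjusted p = 0.0553). Ccnd1 passed the adjusted p under 5 alternatives and Axin2, a feedback inhibitor of Wnt signalling, under 2 of these. The 10 stem cell markers, 5 of which are also in the Wnt list, all had log2 fold changes above 0 (median 0.28), with 0 past the adjusted p in limma and 6 higher at an unadjusted p below 0.05 (9.27% of all genes).

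Markers of some secretory cells differed between the genotypes in the same libraries. Of 8 enteroendocrine markers, 4 fell past the adjusted p (Chgb, Neurod1, Cck and Tac1), against 2.67% of all genes. The 8 summed to 139 to 140.0 FPKM in the WT mice and 42.8 to 68.5 FPKM in the KO mice. Of 8 goblet markers, 1 fell past it (Spink4), against the same 2.67%, with sums of 1486 and 2471 FPKM against 812 and 953 FPKM. These 4 and 1 became 0 and 0 without the filter, without the trend or with any mouse left out, and 2 (Cck and Tac1) and 3 with the replicate block. All 6 tuft markers tested had both KO values below both WT values (31% of all genes). In limma 0 passed the adjusted p, with 4 lower at an unadjusted p below 0.05 (15.2% of all genes). The 7 tuft markers listed summed to 20.2 and 42.4 FPKM in the WT mice and to 16.4 and 6.9 FPKM in the KO mice. WT mouse 2 was thus the highest, and WT mouse 1 was near KO mouse 1. Paneth markers, the products of the cells that EphB3 is known to position, summed to 1658 and 1182 FPKM in the WT mice and to 969 and 3070 FPKM in the KO mice, with KO mouse 2 highest and 0 of 10 past either the adjusted or the unadjusted p of 0.05 in limma. Enterocyte markers summed to 491 and 619 FPKM against 389 and 621 FPKM. In bulk RNA, fewer cells of a type and less RNA per cell cannot be told apart. The part of these cells in the values of Ephb2, Ephb3, Efna3 and Efnb2 was not tested.

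The genes whose centred values were nearest to those of a given gene over the 4 mice, among 12620 genes compared, held no other Eph receptor or ephrin. For Ephb2 they were Cabin1, Aen and Naf1 (Euclidean distance 0.0144 to 0.0168 on the log2 scale), and for Ephb3 they were Golgb1, Farp1 and Trappc12 (0.0116 to 0.0166). For Cd44 they were Neurl3, Tmem8 and Spire2 (0.00988 to 0.0259). The likeness rests on 4 mice and is a description only.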

How the data were processed

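RNA-seq of sorted Lgr5-GFP high cells was used, with 2 mice of each genotype (Lgr5-CREPT WT, Lgr5-CREPT KO). The authors deposited FPKM values per gene, without counts. By the study's methods, reads were mapped to GRCm38.p6 transcripts with Bowtie2 and quantified with RSEM. That section names crypts and intestines and not the sorted cells, and the labels add HISAT and mm10 without roles or versions. FPKM is relative to all other genes in a mouse, and depth is not known. Mice were grouped by sample titles. Genes averaging 0.5 FPKM or more over the mice were fitted as log2(FPKM + 0.5) with limma 3.58.1 (lmFit, eBayes with trend) in R 4.3.3, with Benjamini-Hochberg adjustment over all 12621 genes. Fold changes on this scale understate those of low genes. The study's thresholds (adjusted p below 0.05, absolute log2 fold change above 1) were kept, but its model of counts could not be fitted to FPKM. The procedure was tested on simulated data. Sums, ratios, sequences and RefSeq and GENCODE positions were handled in Python 3.11.15.

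The genes, lists and tests were chosen with earlier results of these data known, and the immediate early list was written after values were seen. Named genes are the 8, the rest of their family, list genes past the adjusted p (otherwise the smallest p), the 3 nearest in pattern to Ephb2, Ephb3 and Cd44, and Rprd1b. Axin2, Vav2, Fyn, Epha2's nearest genes, Esrp1 and the immediate early genes fall outside that rule. Pseudocount, filter, scaling, trend, small RNA genes, replicate block and each mouse left out were varied. Nothing shows whether mice came from separate litters. The limma p-values rest on the spread between these mice and on variance borrowed from other genes.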

Additional observations from a re-analysis of the deposited data

How the results depend on the processing

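Over 14 alternatives, 0 of the 8 genes passed the adjusted p, and 109 of 112 comparisons of a gene with its alternative kept their direction and side of the threshold. The exceptions were Epha2 without WT mouse 2 (-0.42, range -0.42 to 1.53 over mice left out) and Cd44 rescaled to an equal sum per mouse (0.017) or without KO mouse 1 (0.078, range -0.20 to 0.078). Part of this tally was fixed in advance. Changing the filter, trend, small RNA genes or replicate block leaves a gene's log2 fold change as it was, so its direction could not turn. In settings where not a single gene passed, as without the filter, none of the 8 could pass either. The smallest adjusted p of any of the 8 was 0.0779 (Efnb1, rescaled to an equal sum). Of all genes, 389 passed the adjusted p, with 0 without the filter, 4 without the intensity trend, 623 without small RNA genes, 183 with the replicate block and 0 to 0 with a mouse left out. With the fold threshold the 144 became 0 without the filter, 4 without the trend and 0 to 0 with a mouse left out. Rescaling to an equal sum gave 85 genes higher and 243 lower in place of 52 and 337, and moved the median of all genes by 0.07. The 1 family gene that passed, Efna3, was lost (0) without the filter (adjusted p = 0.142), without the trend (0.0919), with the replicate block (0.0587) and with any mouse left out (0 to 0 genes, 0.201 to 0.295), where 1 sample of a genotype was assumed to vary like the others. Esrp2 was lost without the filter (0.105), without the trend (0.0623) and with any mouse left out (0.123 to 0.295). The enteroendocrine and goblet counts also became 0 in those 3 cases. The cause of these losses was not tested. Same-numbered mice are different animals, and deviations of mice 1 correlated by -0.0266 across 12621 genes. This value alone cannot tell whether same-numbered mice shared a litter or a batch. The block changed no call among the 8.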
